A study of Homo sapiens with 6 samples.

Results

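The SLC25 family of mitochondrial carriers was followed in A549 cells, with and without knockdown of MRPL35. A549 is an established line from a human lung adenocarcinoma. Members were all genes with a probe set annotated with exactly 1 symbol of the form SLC25A followed by a number, and 46 genes of the 18244 tested met that rule, with 117 probe sets among them. Each gene was read from its probe set with the highest mean over the 6 arrays, and the remaining probe sets of 34 members served as a check. SLC25A6 was not analysed here.

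Group KD held 3 samples of A549 cells given a lentiviral short hairpin RNA against MRPL35 (shMRPL35), and group NC held 3 samples of A549 cells given lentivirus with a control hairpin (shctrl). MRPL35 belongs to the large subunit of the ribosome inside mitochondria, and the study asked how its loss affects growth and death of lung cancer cells. Both groups carried a lentivirus and were grown in the same serum-containing medium, and the time after transduction, the number of hairpin sequences and any clonal selection are not given in the sources used here. Source names of NC replicates 2 and 3 carry another number after the A, while their other labels give A549. Each sample was read on 1 Affymetrix array, so the number of arrays limits the precision, and nothing in the labels says that replicates were separate cultures. The p-values therefore cover the spread among these arrays alone, which may be technical.

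SLC25 proteins are carriers of the inner mitochondrial membrane, with a few exceptions in other membranes. Each is thought to alternate between a state open to the cytosol and a state open to the matrix, and exchanges or imports particular nucleotides, amino acids, carboxylates, cofactors or metal ions. All are encoded in the nucleus and made in the cytosol, so none is itself a product of the mitochondrial ribosome that contains MRPL35. Those of the inner membrane are inserted through the TIM22 translocase.

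Values are the authors' deposited probe-set values on a log2 scale, on which 1 unit is 2-fold, and a change is KD minus NC. The targeted gene MRPL35 read 6.49, 6.44 and 6.56 in KD replicates 1 to 3, against 8.16, 8.05 and 8.36 in NC replicates 1 to 3. All KD arrays were below all NC arrays. The epithelial keratin genes KRT8 and KRT18 averaged 13.44 and 13.90 in KD and 13.00 and 13.40 in NC, and the leukocyte gene PTPRC 2.47 in KD and 2.57 in NC. Not all markers were so far apart. The epithelial gene EPCAM averaged 6.08 in KD and 5.87 in NC, and the fibroblast gene PDGFRB 5.84 and 5.64. Of 5 epithelial marker genes, 4 rose in KD, CDH1 the most (1.31), against 17.6% of all genes in the test given below. Among genes at or above the median level, where the median gene of these 5 lies, that share was 27.9%. With 5 genes the count is a description, and the part of these markers in the results below was not tested. Of 3 measured markers each of blood cells, fibroblasts and endothelium, 0 passed the test for a change between KD and NC. In a principal component analysis of all genes, NC replicate 2 stood away from the remaining arrays on the component with 11.8% of the variance.

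Of the 46 SLC25 genes, 10 rose and 7 fell in KD, and 29 did not pass the test (limma, Benjamini-Hochberg adjusted p under 0.05 over 18244 genes). The 10 that rose include SLC25A51 and SLC25A52, whose signals cannot be told apart. Over all genes tested 17.6% were called higher and 15.9% lower, or 33.5% in all. The family's shares were 21.7% higher and 15.2% lower, near that background. The median change of the family was -0.0098, against -0.018 over all genes, and the median size of the change without its sign was 0.17 in both. At least 2-fold changes were reached by 2 members upwards and 2 downwards, against 2.27% and 3.09% of all genes. Among the 33 members at or above the median level of all genes, 8 rose and 7 fell (24.2% and 21.2%), against 27.9% and 25.4% of all genes at such levels. In bulk samples, fewer cells that express a carrier and less RNA per cell cannot be told apart.

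**Figure D1:**
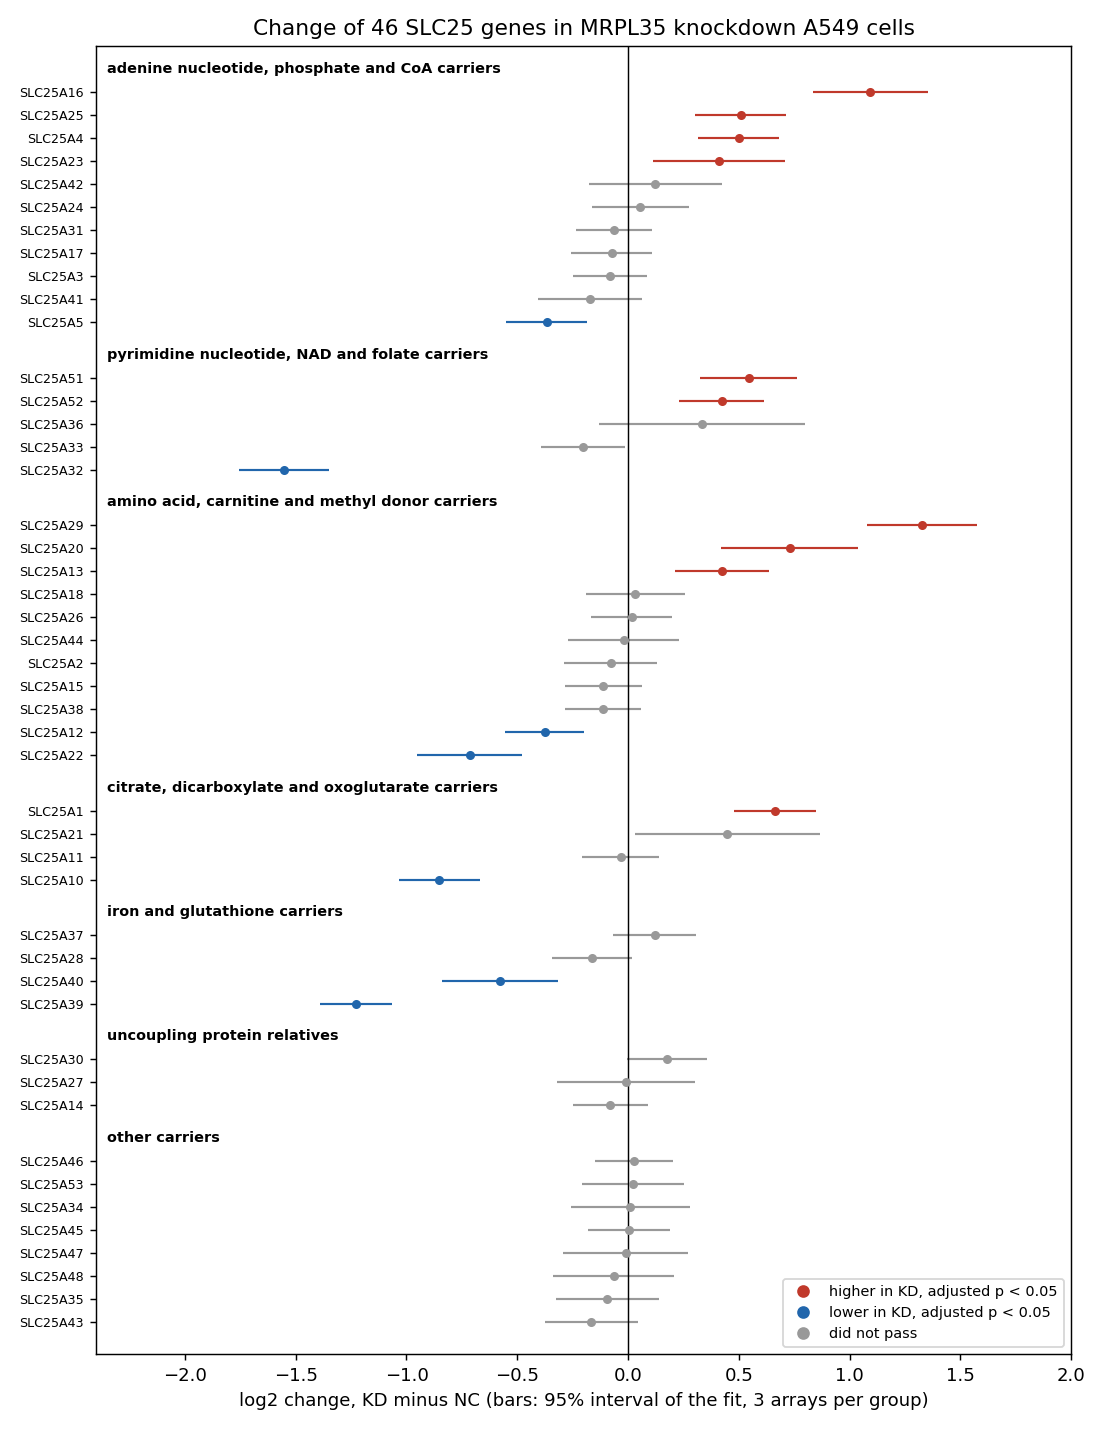
Log2 change (KD minus NC, horizontal axis) of each of the 46 SLC25 genes, grouped by what the carriers transport, with 95% intervals of the fit from 3 arrays per group. Changes run from -1.55 (SLC25A32) to 1.33 (SLC25A29), red and blue genes passed the test, and grey genes did not.

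Separation of the arrays went both ways as well. All KD arrays lay above all NC arrays for 11 members and below them for 13, against 23.2% and 21.5% of all genes tested. Of the 29 members that did not pass, 7 were separated in this way, with changes of up to 0.20 in size. The 23.2% and 21.5% include genes that passed, so they are not a like comparison for these 7. The share of separated genes among all genes that did not pass was not counted. Replicates of a member usually lay close together. The median SD over members was 0.072 in KD and 0.099 in NC, against 0.085 in KD and 0.13 in NC over all genes.

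The 3 promoters that follow belong to members with large called changes that have an entry in the RefSeq promoter table and can be shown here, 1 that fell (SLC25A39) and 2 that rose (SLC25A29 and SLC25A20). They are the 250 bases before the annotated start, 5′ to 3′, from build GRCh38.p14, at chr17:44324824-44325073 on the minus strand for SLC25A39, chr14:100306445-100306694 on the minus strand for SLC25A29 and chr3:48898883-48899132 on the minus strand for SLC25A20. Capitals mark matches to 4 strings searched on both strands, which were GGGCGG (the GC box), CCAAT (the CCAAT box), CACGTG (the E-box) and TGACGTCA (the cyclic AMP response element).
SLC25A39: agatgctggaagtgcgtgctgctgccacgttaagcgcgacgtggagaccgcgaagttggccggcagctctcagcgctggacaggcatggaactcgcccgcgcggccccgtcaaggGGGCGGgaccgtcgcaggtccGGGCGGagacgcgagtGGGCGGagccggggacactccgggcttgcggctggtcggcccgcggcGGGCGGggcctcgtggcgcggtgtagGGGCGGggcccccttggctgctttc
SLC25A29: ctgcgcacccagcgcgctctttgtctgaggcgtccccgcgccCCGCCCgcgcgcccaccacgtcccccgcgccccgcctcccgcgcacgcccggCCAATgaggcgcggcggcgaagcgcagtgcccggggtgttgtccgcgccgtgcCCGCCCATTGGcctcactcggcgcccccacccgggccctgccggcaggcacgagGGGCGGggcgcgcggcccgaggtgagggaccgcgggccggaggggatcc
SLC25A20: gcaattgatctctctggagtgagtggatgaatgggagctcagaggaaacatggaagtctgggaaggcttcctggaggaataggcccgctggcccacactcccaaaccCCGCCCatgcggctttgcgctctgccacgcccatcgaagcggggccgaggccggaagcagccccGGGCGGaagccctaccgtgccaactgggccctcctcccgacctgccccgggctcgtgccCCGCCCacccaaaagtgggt
The promoter of SLC25A39 held 5 copies of GGGCGG, and those of SLC25A29 and SLC25A20 3 each. No copy of the E-box or of the cyclic AMP response element was found in these 3 windows. In SLC25A29 a pair of CCAAT matches was found, 1 of them directly beside a GGGCGG match and neither overlapping one. Of 39 members with an entry, GGGCGG was present in 27 (69.2%), against 42.3% of 27305 promoters of the same length. It was in 7 of the 9 matched members that rose and in all 6 matched members that fell, so its presence did not divide them. CCAAT was present in 6 of the 9 that rose and 0 of the 6 that fell, and in 43.6% of the members and 33.0% of all promoters. SLC25A32, with the largest fall, and SLC25A16, with a large rise, have no entry and are missing from these counts. The counts are small, CCAAT was 1 of 4 strings searched, and the split was not tested. CACGTG was present in 7 members (17.9%) against 6.49% of all promoters and TGACGTCA in 3 (7.69%) against 1.77%. The 27305 promoters cover all symbols with an entry, not only the genes tested. They were not matched to the members by level or base content, so the shares are not a like comparison. A match of letters is a description and not a bound site.

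Of 11 measured carriers of adenine nucleotides, phosphate and coenzyme A, 4 rose and 1 fell in KD, and the median change was 0.054. Those shares were 36.4% and 9.09%, against 17.6% and 15.9% of all genes tested. Of genes at or above the median level, where the median gene of this class lies, 27.9% were called higher and 25.4% lower. With 11 genes, the counts are a description and were not tested against those shares. The largest rise of the class was in SLC25A16, which has been linked to the supply of coenzyme A to the matrix. SLC25A16 read 8.08, 7.94 and 7.96 in KD, against 7.06, 6.66 and 6.99 in NC. It rose by 1.09 ± 0.11 (log2 change ± standard error of the fit, n = 3 per group), a 2.13-fold higher level (limma, adjusted p = 9.87e-05). The 3 KD arrays lay above the 3 NC arrays by a wide margin, and 2 further probe sets rose by 1.05 and 0.97. SLC25A42, a carrier of coenzyme A and related nucleotides, had a change of 0.12 that did not pass (adjusted p = 0.557).

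The ADP/ATP carriers export newly made ATP from the matrix in exchange for ADP. SLC25A5, the form that prevails in dividing cells, read 12.56, 12.52 and 12.64 in KD, against 12.87, 13.03 and 12.93 in NC. It fell by 0.37 ± 0.081 on the log2 scale, 1.29-fold lower (limma, adjusted p = 0.00676), and its other probe set changed by -0.36. SLC25A4, the form best known from heart and skeletal muscle, read 7.80, 7.95 and 7.83 in KD, against 7.43, 7.33 and 7.33 in NC. It rose by 0.50 ± 0.080, 1.41-fold higher (limma, adjusted p = 0.00118), with 0.68 in its other probe set. The 2 forms therefore moved in opposite directions, each with no overlap between the groups. SLC25A31, the form known from testis, was dim in every array, at 2.55 in KD and 2.61 in NC, and did not pass.

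SLC25A25 and SLC25A23 are calcium-regulated carriers that exchange ATP-magnesium for phosphate and so adjust the adenine nucleotide pool of the matrix. SLC25A25 read 7.35, 7.44 and 7.33 in KD, against 6.78, 6.80 and 7.02 in NC, without overlap. It rose by 0.51 ± 0.090 (limma, adjusted p = 0.00208), and its 2 other probe sets changed by 0.42 and 0.26, the first of them past the test. SLC25A23 read 6.43, 6.62 and 6.83 in KD, against 6.19, 6.03 and 6.43 in NC, and the lowest KD array was barely above the highest NC array. It rose by 0.41 ± 0.13 (limma, adjusted p = 0.0397). That call was lost without KD replicate 2 (adjusted p = 0.0941), KD replicate 3 (0.152), NC replicate 1 (0.105) or NC replicate 2 (0.0800), with the mean of its probe sets (a change of 0.18) and with median centring (0.0507). Its other probe sets changed by 0.0091 and 0.13. The relatives SLC25A24 and SLC25A41 did not pass, and SLC25A41 changed by -0.17.

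SLC25A3, the phosphate carrier that supplies ATP synthase, read 12.43, 12.38 and 12.41 in KD, against 12.44, 12.51 and 12.52 in NC. Its change of -0.083 did not pass (limma, adjusted p = 0.471), with a 95% interval from -0.25 to 0.085. The 6 probe sets of SLC25A3 ranged in change from -0.16 to 0.041, and none passed. SLC25A17, which is a peroxisomal carrier, did not pass either.

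Carriers of cofactors and pyrimidine nucleotides held the largest fall of the family. SLC25A32, which brings folate into mitochondria, read 6.45, 6.26 and 6.30 in KD, against 7.89, 7.79 and 7.98 in NC. It fell by 1.55 ± 0.089 on the log2 scale, 2.93-fold lower (limma, adjusted p = 4.06e-06). Its second probe set changed by -0.94 and passed too, with 6.69, 6.11 and 6.24 in KD against 7.31, 7.33 and 7.23 in NC. The groups were separate in both probe sets, but the second had a smaller fall and a wider spread in KD (SD 0.30, against 0.10 in the first).

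SLC25A51 imports NAD into mitochondria, and SLC25A52 is its near-identical copy. SLC25A51 read 5.78, 5.72 and 5.71 in KD, against 5.32, 5.01 and 5.24 in NC, and rose by 0.54 ± 0.097 (limma, adjusted p = 0.00212). SLC25A52 averaged 5.66 in KD and 5.24 in NC and rose by 0.42 ± 0.084 (limma, adjusted p = 0.00399). Both were low, with means over all arrays of 5.46 and 5.45, at percentiles 40.8 and 40.6 of the genes tested. That is just above the cut below which genes were taken as dim. The endothelial markers VWF, PECAM1 and CDH5 averaged 5.44, 5.35 and 4.18 over the same arrays. Each copy has 1 probe set, whose suffix marks that it can hybridise to more than 1 transcript, so signal of the 2 copies cannot be told apart. With SLC25A32 included, 2 of 5 genes in this class rose while 1 fell, against 17.6% and 15.9% of all genes tested. The median change of the class was 0.33. The 2 that rose are SLC25A51 and SLC25A52, so they may be 1 signal counted for both.

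The pyrimidine nucleotide carriers did not pass. SLC25A36 read 8.73, 8.14 and 8.49 in KD, against 8.36, 8.32 and 7.67 in NC, a wide spread in both groups, and its change of 0.33 had a 95% interval from -0.13 to 0.80. A second probe set of SLC25A36 rose by 0.56 (limma over all probe sets, adjusted p = 0.00940) and another changed by 0.10. SLC25A33 changed by -0.20 (limma, adjusted p = 0.0999), with all KD arrays below all NC arrays.

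**Figure D2:**
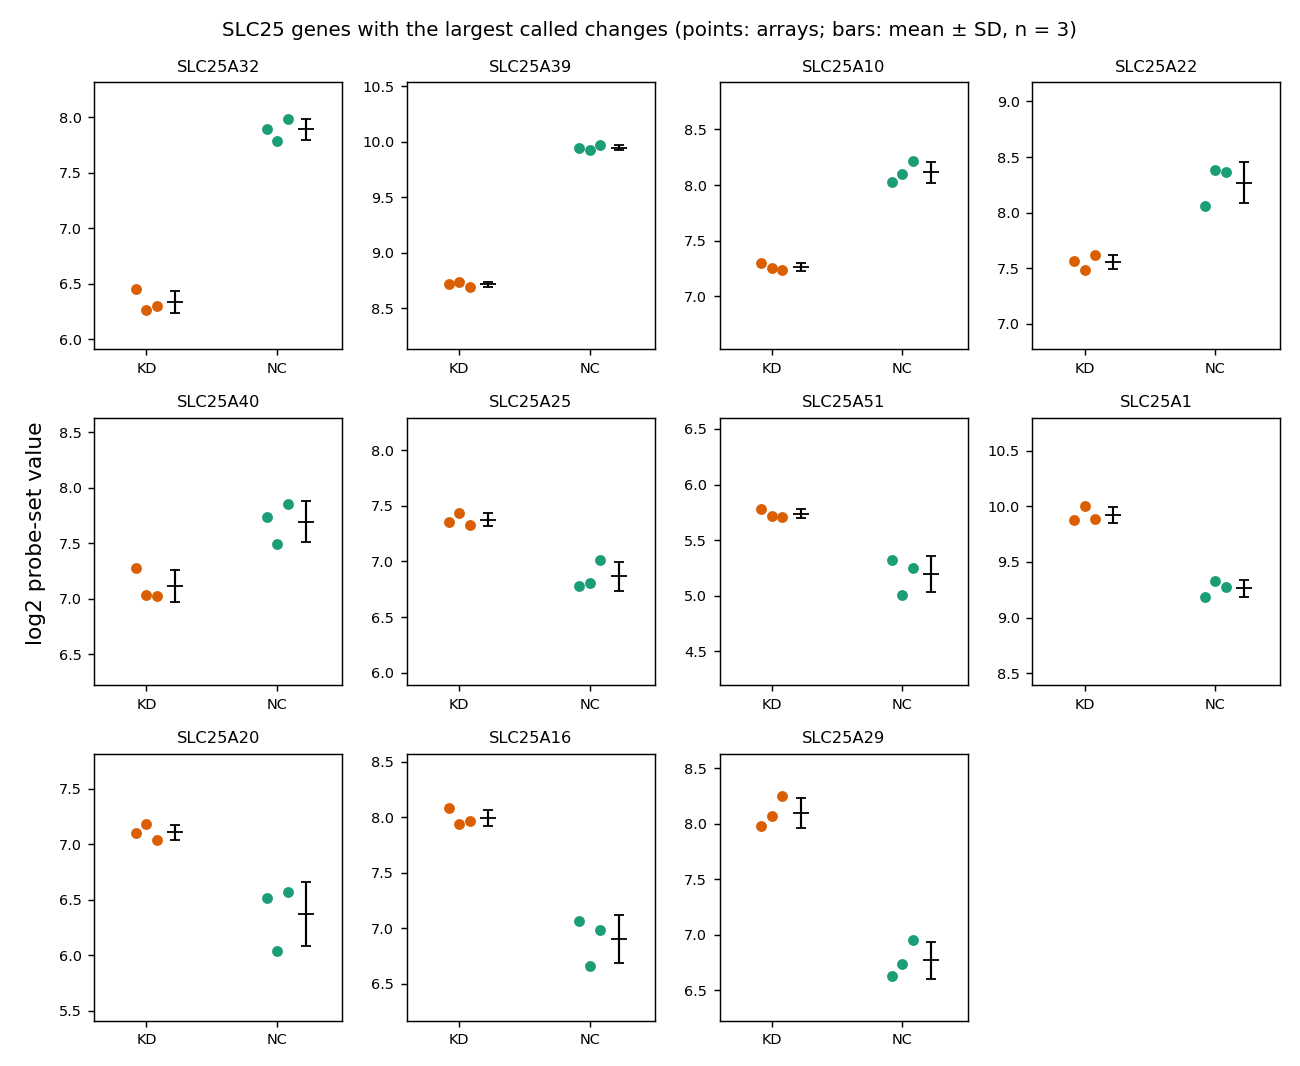
Log2 probe-set values of the 11 SLC25 genes with a called change of at least 0.5 in size, 1 point per array, with KD left of NC and mean ± SD (n = 3). Every panel spans the same height in log2 units and shows no overlap between KD and NC; the first 5 genes fell in KD and the other 6 rose.

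Of the carriers of amino acids, carnitine and methyl donors, 3 of 11 genes rose while 2 fell, and the median change was -0.019. Those shares were 27.3% and 18.2%, against 17.6% and 15.9% of all genes tested. Of genes at or above the median level, where the median gene of this class lies, 27.9% were called higher and 25.4% lower. SLC25A29, which carries arginine, lysine and other basic amino acids, had the largest rise of the family. It read 7.98, 8.07 and 8.25 in KD, against 6.63, 6.74 and 6.95 in NC. The rise was 1.33 ± 0.11, or 2.51-fold (limma, adjusted p = 2.76e-05), and its other probe set rose by 1.05. The lowest KD array was about 1 log2 unit above the highest NC array. The brightest probe set of SLC25A29 has the suffix for possible cross-hybridisation. With suffixed probe sets left out, SLC25A29 rose by 1.05 and SLC25A16 by 1.09, so the rank of largest rise rests on that probe set.

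SLC25A20 is the carnitine/acylcarnitine carrier, which brings activated fatty acids into the matrix for oxidation. It read 7.10, 7.18 and 7.04 in KD, against 6.52, 6.04 and 6.57 in NC. NC replicate 2 was the lowest, and the groups did not overlap. It rose by 0.73 ± 0.14, 1.66-fold (limma, adjusted p = 0.00280), with 0.73 and 0.65 in its other probe sets. CPT1A, the enzyme that makes acylcarnitine at the outer membrane, rose by 0.86 ± 0.082, and CPT2, which acts after the carrier, changed by 0.22 without passing (adjusted p = 0.116).

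The glutamate carrier SLC25A22 fell. SLC25A22 read 7.56, 7.49 and 7.61 in KD, against 8.06, 8.39 and 8.37 in NC, and the groups were separate. Its change was -0.72 ± 0.10, 1.64-fold lower (limma, adjusted p = 0.000705), and its dimmer probe set changed by -0.32 and passed. SLC25A18, the other glutamate carrier, was dim at 3.47 in KD and 3.44 in NC.

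SLC25A12 and SLC25A13 exchange matrix aspartate for glutamate and form part of the malate-aspartate shuttle, which moves reducing equivalents into mitochondria. SLC25A13 read 9.65, 9.65 and 9.59 in KD, against 9.14, 9.11 and 9.38 in NC, and rose by 0.42 ± 0.093 (limma, adjusted p = 0.00694). SLC25A12 read 6.28, 6.12 and 6.21 in KD, against 6.55, 6.58 and 6.60 in NC, and fell by 0.38 ± 0.078 on the log2 scale (limma, adjusted p = 0.00488). Neither gene's groups overlapped, and the directions were opposite. The other probe sets had the sign of the first, at 0.15 and 0.27 for SLC25A13 and -0.33 and -0.19 for SLC25A12, and none of these passed. With the mean of its probe sets SLC25A13 changed by 0.28 and was not called (adjusted p = 0.117). Of the remaining members in the class, SLC25A38, a glycine carrier needed for heme synthesis, changed by -0.11 and SLC25A15, an ornithine carrier of the urea cycle, by -0.11, and neither passed.

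Of the 4 carriers of citrate and dicarboxylates, 1 rose and 1 fell, against 17.6% and 15.9% of all genes tested. SLC25A1, which exports citrate to the cytosol where it feeds fatty acid synthesis, read 9.88, 10.01 and 9.89 in KD, against 9.18, 9.33 and 9.28 in NC. It rose by 0.66 ± 0.081, 1.58-fold (limma, adjusted p = 0.000262). Its 3 bright probe sets, all with the suffix for possible cross-hybridisation, rose by 0.66, 0.60 and 0.81, and the dim one without that suffix changed by 0.25 and did not pass (adjusted p = 0.0926 with such probe sets left out). SLC25A10, which exchanges malate or succinate for phosphate, read 7.30, 7.26 and 7.23 in KD, against 8.03, 8.10 and 8.22 in NC. It fell by 0.85 ± 0.081 on the log2 scale, 1.80-fold lower (limma, adjusted p = 6.22e-05), and its other probe set changed by -0.95. SLC25A11, the oxoglutarate/malate carrier of the malate-aspartate shuttle, did not pass. SLC25A21, a carrier of oxodicarboxylates, changed by 0.45 in a dim probe set (adjusted p = 0.0995), with 3.53 to 4.21 in KD and 3.23 to 3.71 in NC. It passed without KD replicate 2 (0.65, adjusted p = 0.0125) or NC replicate 2 (0.56, 0.0389), and 2 of its 3 other probe sets, dimmer still, rose by 0.38 and 0.55.

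Both carriers linked to the import of glutathione, the main thiol antioxidant, fell. SLC25A39 read 8.71, 8.74 and 8.70 in KD, against 9.95, 9.92 and 9.97 in NC, with an SD of 0.023 in KD and 0.024 in NC. No other member had a smaller SD in KD. SLC25A39 fell by 1.23 ± 0.072 on the log2 scale, 2.34-fold lower (limma, adjusted p = 4.39e-06), from a single probe set whose suffix allows cross-hybridisation. Its relative SLC25A40 read 7.28, 7.04 and 7.03 in KD, against 7.73, 7.49 and 7.85 in NC, and fell by 0.58 ± 0.12 on the log2 scale (limma, adjusted p = 0.00408). The second probe set of SLC25A40 changed by -0.64 and passed.

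The mitoferrins SLC25A28 and SLC25A37 import iron for heme and iron-sulphur clusters. SLC25A28 changed by -0.16 without passing (adjusted p = 0.159), although all KD arrays were below all NC arrays. The probe sets of SLC25A37 disagreed. The brightest changed by 0.12 (95% interval -0.067 to 0.31) and did not pass. Of the other 4, 1 rose by 0.28 and 2 fell by 0.61 and 0.57 on the log2 scale, all 3 past the test over all probe sets, and 1 changed by 0.11. No single direction was read for SLC25A37, and whether its probe sets detect different transcripts was not tested.

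None of the 3 relatives of the uncoupling proteins passed in limma, and 0 had an unadjusted p under 0.05. SLC25A14 read 7.52, 7.59 and 7.57 in KD, against 7.63, 7.59 and 7.70 in NC, a narrow separation, and changed by -0.079. SLC25A30 changed by 0.17, with all KD arrays above all NC arrays, and SLC25A27 was dim in both groups. Of the 8 members not placed by substrate, 0 passed either in limma, and 0 had an unadjusted p under 0.05. SLC25A46, an outer membrane member linked to the shape of mitochondria, read 8.81, 8.81 and 8.73 in KD, against 8.84, 8.72 and 8.72 in NC, with a 95% interval of the change from -0.15 to 0.20. SLC25A43 changed by -0.17 and passed with array weights (-0.24, adjusted p = 0.0376).

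The 15 members not given with a change of their own were SLC25A2, SLC25A11, SLC25A17, SLC25A18, SLC25A24, SLC25A26, SLC25A27, SLC25A31, SLC25A34, SLC25A35, SLC25A44, SLC25A45, SLC25A47, SLC25A48 and SLC25A53. Their changes lay between -0.094 and 0.054, 6 of them above 0 and 9 below, with overlapping arrays in each. The half-widths of their 95% intervals were 0.17 to 0.31, so changes of that size could not be told from 0 with these arrays.

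Related carriers were then set side by side in 8 pairs chosen for a shared substrate. The difference between the changes was 0.80 for SLC25A13 and SLC25A12 and 0.87 for SLC25A4 and SLC25A5, the first of each pair being higher in KD and the second lower. It was -0.65 for SLC25A39 and SLC25A40, which both fell, and -0.75 for SLC25A22 and SLC25A18. For the mitoferrins SLC25A37 and SLC25A28 it was 0.28, read from the brightest probe set of SLC25A37. The 4 other probe sets of SLC25A37 changed by -0.61, -0.57, 0.28 and 0.11, so the difference of this pair depends on the probe set. In these 5 pairs the within-array differences of KD and NC did not overlap, and the exact two-sided permutation test over arrays gave p = 0.1 for each, the smallest that 3 against 3 arrays allow, and 0.160 adjusted over the 8 pairs. The pairs SLC25A36 and SLC25A33 (0.54, exact p = 0.2), SLC25A51 and SLC25A52 (0.12, p = 0.5) and SLC25A15 and SLC25A2 (-0.034, p = 0.7) overlapped. None of the 8 differences can therefore pass this test at 0.05. For SLC25A13 and SLC25A12, and for SLC25A4 and SLC25A5, the groups of each gene were already separate, in opposite directions. Their differences could then not overlap, so the test adds no support for these pairs.

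**Figure D3:**
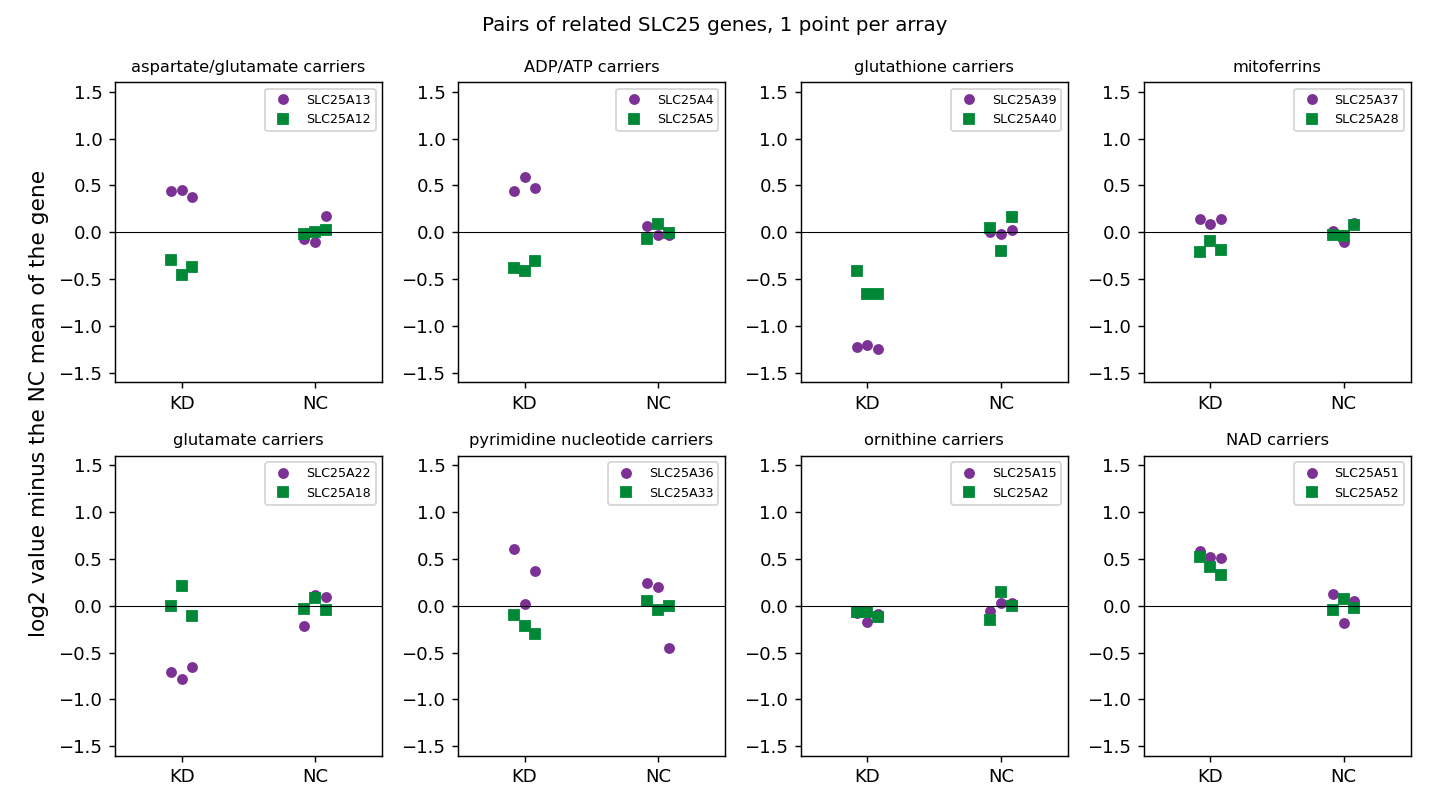
Log2 values of 8 pairs of related SLC25 genes, each minus that gene's NC mean, 1 point per array with KD left of NC. SLC25A13 and SLC25A4 lie above 0 in all KD arrays while SLC25A12 and SLC25A5 lie below 0, and SLC25A39 and SLC25A40 both lie below.

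Further probe sets of the same genes give a second reading on these arrays. The 17 called members had 22 further probe sets in 14 genes, and all 22 had the sign of the brightest one, 14 of them past the test in that direction. In SLC25A12, SLC25A13 and SLC25A23 no second probe set passed, and SLC25A39, SLC25A51 and SLC25A52 have none. The 29 other members had 49 further probe sets, of which 29 shared the sign of the brightest and 6 passed, in SLC25A21, SLC25A36 and SLC25A37.

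**Figure D4:**
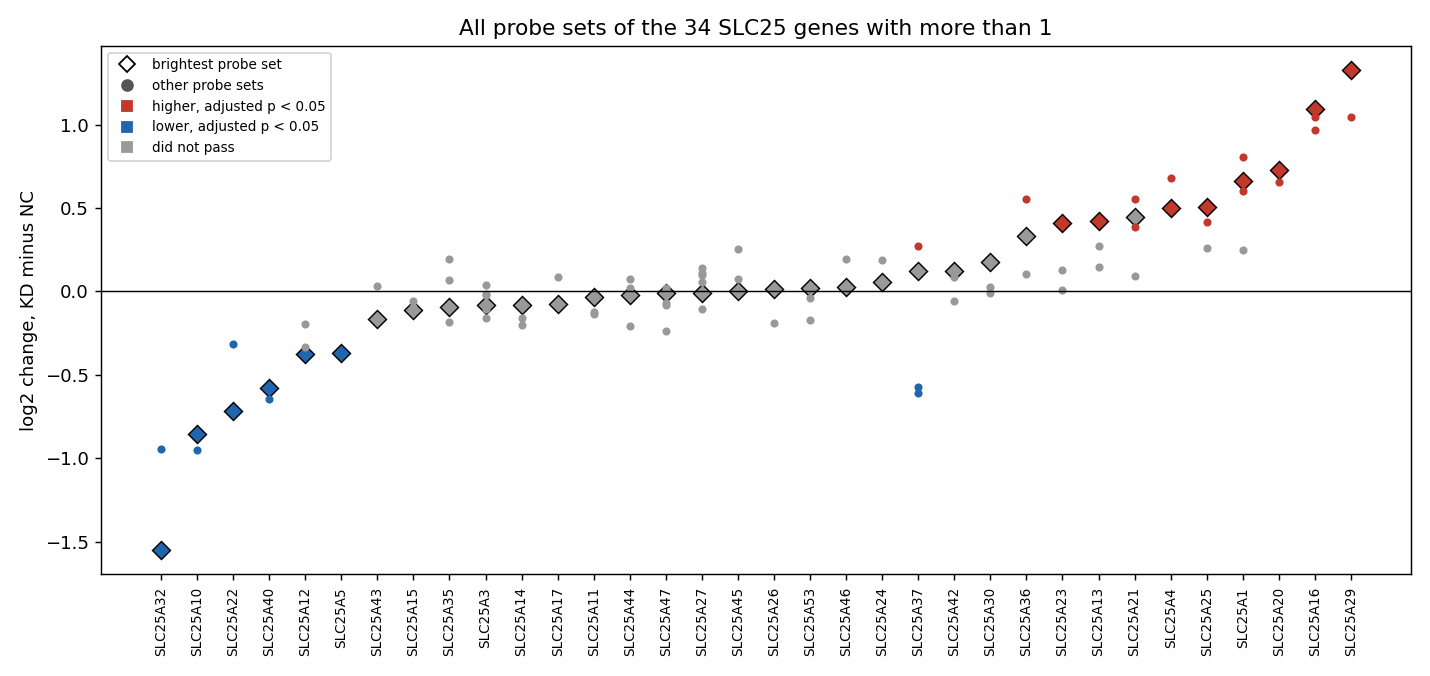
Log2 change (KD minus NC) of every probe set of the 34 SLC25 genes that have more than 1, with the brightest as a diamond and genes ordered by its change. Probe sets of called genes share 1 sign, and SLC25A37 has called probe sets on both sides of 0.

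Proteins with which the carriers work were read from lists of related genes. The TIM22 route inserts carriers into the inner membrane, and 4 of its 10 measured genes fell while 0 rose, and their median change was -0.18. Of all genes tested 15.9% were called lower, and of genes at or above the median level, where the median gene of this list lies, 25.4%. With 10 genes, 4 called lower is a description and was not tested against those shares. TOMM70, the outer membrane receptor for carrier precursors, fell by 0.70 ± 0.090 on the log2 scale, and the small chaperones TIMM10 and TIMM9 by 0.54 ± 0.074 and 0.44 ± 0.11. All KD arrays were below all NC arrays for these 3 genes. TOMM70 was read from a probe set with the suffix for possible cross-hybridisation, and its further probe sets were not compared. TIMM22, the channel itself, changed by 0.028 and did not pass (limma, adjusted p = 0.847).

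Carriers of the same fold that have other symbols were the uncoupling proteins and the MTCH proteins. Of these 5, 1 rose, against 17.6% of all genes tested. UCP2 read 9.80, 9.83 and 9.98 in KD, against 9.16, 9.42 and 9.29 in NC, and rose by 0.58 ± 0.096 (limma, adjusted p = 0.00143). That probe set of UCP2 has the suffix for possible cross-hybridisation, and the further probe sets of UCP2 were not compared. The channels of the outer membrane, VDAC1, VDAC2 and VDAC3, changed by 0.033, -0.033 and -0.14, and none passed. Of 17 measured inner membrane transporters and carnitine enzymes outside the family, 6 rose (35.3%) and 1 fell, with a median of 0.16. Of all genes 17.6% were called higher, and of genes at or above the median level, where the median gene of this list lies, 27.9%, which is not far from the list's share. Besides CPT1A these included MPC1, a subunit of the pyruvate carrier (0.49 ± 0.14), and MICU2, a regulator of the calcium uniporter (0.46 ± 0.11). The only probe set of MICU2 has the suffix for possible cross-hybridisation. The fall was in SFXN2, a sideroflexin, by 1.10 ± 0.11 on the log2 scale. SFXN2 and MPC1 were low, with means over all arrays of 5.40 and 5.23, at percentiles 39.8 and 37.7 of the genes tested. Both lie below the cut under which genes were taken as dim.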

How the data were processed

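The authors' deposited table holds probe-set values of 6 Affymetrix arrays, 3 KD and 3 NC, for 49395 probe sets, and samples were grouped and numbered by title. The authors' deposited values were taken as log2 from their range, already summarised and normalized to nearly equal array medians; the log base, summarisation and normalization are not given in the sources used here. Per the labels' protocols, Trizol served for extraction and biotin for labelling. A change is thus set against the average gene, and background was not measured. Names came from the platform's annotation of probe sets, where 45278 had 1 symbol, 1333 several and 2682 none, and 102 were controls. Identifiers of 45208 matched RefSeq (GRCh38.p14), which changed 0 symbols. Each of 18244 genes was read from its brightest probe set.

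The test was limma 3.58.1 under R 4.3.3 (lmFit, eBayes, two-sided, with group as its term), adjusted by Benjamini-Hochberg over all genes at 0.05, or over 49293 probe sets for single probe sets. Pairs used an exact permutation test (scipy 1.17.1). Figures used matplotlib 3.10.9. The fit was tested on simulated data. Members, lists, pairs and motifs were chosen with earlier results of these data known. Array values were given for called members with separate groups and a change of at least 0.5 and for the brightest of each class, and for others where a comparison rests on them. Non-members named were at most 3 each way per list among those called, and others were named for their role. Alternatives were quantile normalization, median centring, array weights, eBayes with trend and robust options, a block for replicate number, averaged probe sets, x or s suffixes left out, dim genes (below the 40th percentile) left out, and each array left out.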

Additional observations from a re-analysis of the deposited data

How the results depend on the processing

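Over 14 alternatives the number of SLC25 genes called higher in KD was 7 to 11, against 10 as reported, and the number called lower 6 to 9, against 7. The count of 7 came with x or s suffixes left out, where 40 members could be tested, and those of 11 and 9 with array weights. Leaving out each array in turn gave 9 to 10 higher and 7 lower. With the replicate number as a block, 10 were called higher and 7 lower. Across genes, the deviations of samples with 1 number correlated at r = 0.25, 0.26 and -0.096, so they did not deviate together throughout. Of 6 arrays, 3 correlated best with their own number. With 3 arrays per group, this check cannot settle whether samples with 1 number shared a culture or a batch. Of the 17 called members, 14 kept their call and sign under every alternative that could be computed; the exceptions were SLC25A23, SLC25A13 and SLC25A1, with the values given beside them. No called member changed sign. Among members that had not passed and are described singly, the estimate crossed 0 for SLC25A46 with array weights (-0.0047), for SLC25A37 with averaged probe sets (-0.13), and for SLC25A3 (0.041) and SLC25A30 (-0.0066) with suffixed probe sets left out, where another probe set is read. Calls were gained by SLC25A33 and SLC25A43 with array weights, SLC25A33 with dim genes left out, SLC25A36 with averaged probe sets, and SLC25A21 with array weights or averaged probe sets, besides the arrays named with it. The 15 members given only by their range were never called, and in 13 of them the estimate, which lay near 0 (-0.16 to 0.20 over all alternatives), changed sign at least once, in 36 of 204 values. The pseudocount alternative was not run, since the values are logs. Dim probe sets limit what can be read, since background was not measured.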
